A study of Bos taurus with 18 samples.

Results

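The transcripts described here are those of 3 antioxidant enzymes (SOD1, SOD2 and CAT) and of 1 molecular chaperone (HSP90AA1) in bovine blastocysts. They were chosen by Ensembl gene ID and are 4 of the 24616 IDs counted: ENSBTAG00000018854 for SOD1, ENSBTAG00000006523 for SOD2, ENSBTAG00000020980 for CAT and ENSBTAG00000006270 for HSP90AA1. The samples were 18 demi-embryos of Holstein blastocysts, each holding trophectoderm and inner cell mass cells. Donor heifers had been superovulated, and the series design has their embryos recovered by uterine flushing 8 days past the anticipated ovulation, although the handling protocol speaks of a day of culture. The sister demi-embryo of each blastocyst was placed in a recipient heifer. In the pregnant group (4 embryos) the recipient carried a pregnancy on days 30 and 60 of gestation. In the not-pregnant group (14 embryos) the recipient was not pregnant on day 30. Embryos of both groups were therefore products of superovulation and were cut, and the portion sequenced was the smaller or less intact of both whenever the cut was uneven. Donors are not named in the labels, and embryos may share one, so each p-value speaks of variation among embryos and not among donors.

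Superoxide dismutases turn superoxide, a by-product of respiration, into hydrogen peroxide. SOD1 is the copper-zinc enzyme of the cytosol and SOD2 the manganese enzyme of the mitochondrial matrix. Catalase, the product of CAT, breaks hydrogen peroxide down to water and oxygen, mainly in peroxisomes. HSP90AA1 encodes the stress-inducible form of the cytosolic chaperone HSP90, which helps kinases, steroid receptors and other client proteins reach and keep their active shape. In bovine embryos these transcripts are often measured as markers of oxidative or heat stress, because the early embryo is sensitive to both.

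Counts per library totalled 854791 to 2439701 in the pregnant group and 1611847 to 4689576 in the not-pregnant group. Gene IDs with at least 1 count numbered 17909 to 18911 in the pregnant libraries and 13234 to 17625 in the others, so the number of IDs detected separated the groups. Depth was below the whole not-pregnant range in pregnant 1, pregnant 2 and pregnant 5, but within it in pregnant 3. In pregnant 3 the 20 most abundant IDs took 58.8% of the counts, against 36.2% to 38.3% in the other pregnant libraries and 28.1% to 49.5% in the not-pregnant ones. Levels are given in CPM, the usual unit of counts scaled to a common library size. The library size was the effective one that TMM scaling sets from the bulk of the genes. Levels of different genes are not set against each other, since transcript lengths were not used here. As each sample is a mix of cell types, fewer cells of a type and less RNA per cell cannot be told apart. Marker genes of those cell types were not analysed here, because the IDs are not paired with names.

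All 4 genes passed the filter on low counts. Of the 4, HSP90AA1 was lower in embryos followed by pregnancy, by a log2 fold change of -0.66, and the 3 antioxidant enzymes did not pass the threshold (an adjusted p below 0.05, by the quasi-likelihood test of edgeR over 13060 tested IDs). In that comparison 0.773% of all tested IDs passed, which splits into 0.429% lower and 0.345% higher in the pregnant group. Log2 fold changes were below 0 for 3 of the 4 genes, with a median of -0.49 over the 4, beside a median of 0.10 over all tested IDs, 56.2% of which were above 0. That background was lower among abundant IDs, with a median of -0.19 at a mean of at least 32 CPM and -0.48 at 1000 CPM or more.

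SOD1 had 14 to 58 counts in the pregnant libraries and 22 to 97 in the others. Its level was 11.4 CPM in pregnant 1, 32.8 in pregnant 2, 34.1 in pregnant 3 and 27.7 in pregnant 5. Over the 14 not-pregnant embryos it ran from 8.07 to 55.0 CPM with a median of 25.6. Pregnant 1 was low and the other 3 lay above the not-pregnant median, but every pregnant value was inside the not-pregnant range. Group means were 26.5 ± 10.4 CPM (SD, n = 4) and 25.3 ± 12.9 CPM (SD, n = 14). The log2 fold change of SOD1, pregnant over not pregnant, was 0.08 with a standard error of 0.37 (adjusted p = 0.928 in edgeR). Its 95% confidence interval of -0.66 to 0.83 on the log2 scale covers a level in the pregnant group between 0.631 and 1.78 times that of the other group. The sign of this small difference depended on the scaling and on single libraries, with -0.17 without pregnant 3 and 0.32 without pregnant 1. Relative to the median of all tested IDs, SOD1 differed by -0.04 to -0.02 on the log2 scale over 6 ways of scaling, a measure that scaling by construction hardly moves.

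SOD2 was the most thinly counted of the 4 genes, with 1 to 16 counts in the pregnant libraries and 9 to 57 in the others. Its level was 4.88 CPM in pregnant 1, 0.819 in pregnant 2 (1 count), 9.42 in pregnant 3 and 6.15 in pregnant 5. The not-pregnant embryos ran from 4.58 to 16.2 CPM, with a median of 14.01. All 4 pregnant values lay below that median, and pregnant 2 lay below the whole not-pregnant range. The other 3 pregnant embryos overlapped the lower part of the not-pregnant group, in which not-pregnant 3, 1 and 15 stood lowest, at 4.58, 4.90 and 5.35 CPM, and the next embryo was at 8.02 CPM. Group means were 5.32 ± 3.56 CPM (SD, n = 4) and 11.7 ± 4.28 CPM (SD, n = 14). The log2 fold change of SOD2 was -1.11 (SE 0.51), a pregnant level of 0.465 times the not-pregnant one, and it did not pass after adjustment (unadjusted p = 0.0369, adjusted p = 0.264 in edgeR). Its 95% confidence interval ran from -2.14 to -0.07. Without pregnant 2 the log2 fold change was -0.77 (adjusted p = 0.538 in edgeR) and without pregnant 3 it was -1.67 (adjusted p = 0.178 in edgeR). With 1 count in pregnant 2 and 6 in each of pregnant 1 and pregnant 5, the depth gives little precision for this gene.

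CAT had 42 to 62 counts in the pregnant libraries and 68 to 300 in the others. Its level was 43.1 CPM in pregnant 1, 50.8 in pregnant 2, 24.7 in pregnant 3 and 55.4 in pregnant 5, and the not-pregnant embryos ran from 39.4 to 75.6 CPM with a median of 52.4. Pregnant 3 stood below all not-pregnant embryos, while the other 3 pregnant embryos were within their range. Group means were 43.5 ± 13.5 CPM (SD, n = 4) and 53.7 ± 11.3 CPM (SD, n = 14). CAT differed by -0.32 on the log2 scale (SE 0.23, adjusted p = 0.502 in edgeR), with a 95% confidence interval of -0.79 to 0.16, so that the data allow a pregnant level between 0.578 and 1.12 times the not-pregnant one. Without pregnant 3, the library in which the most abundant IDs took the largest share of counts, it was -0.22 (adjusted p = 0.701 in edgeR).

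**Figure D1:**
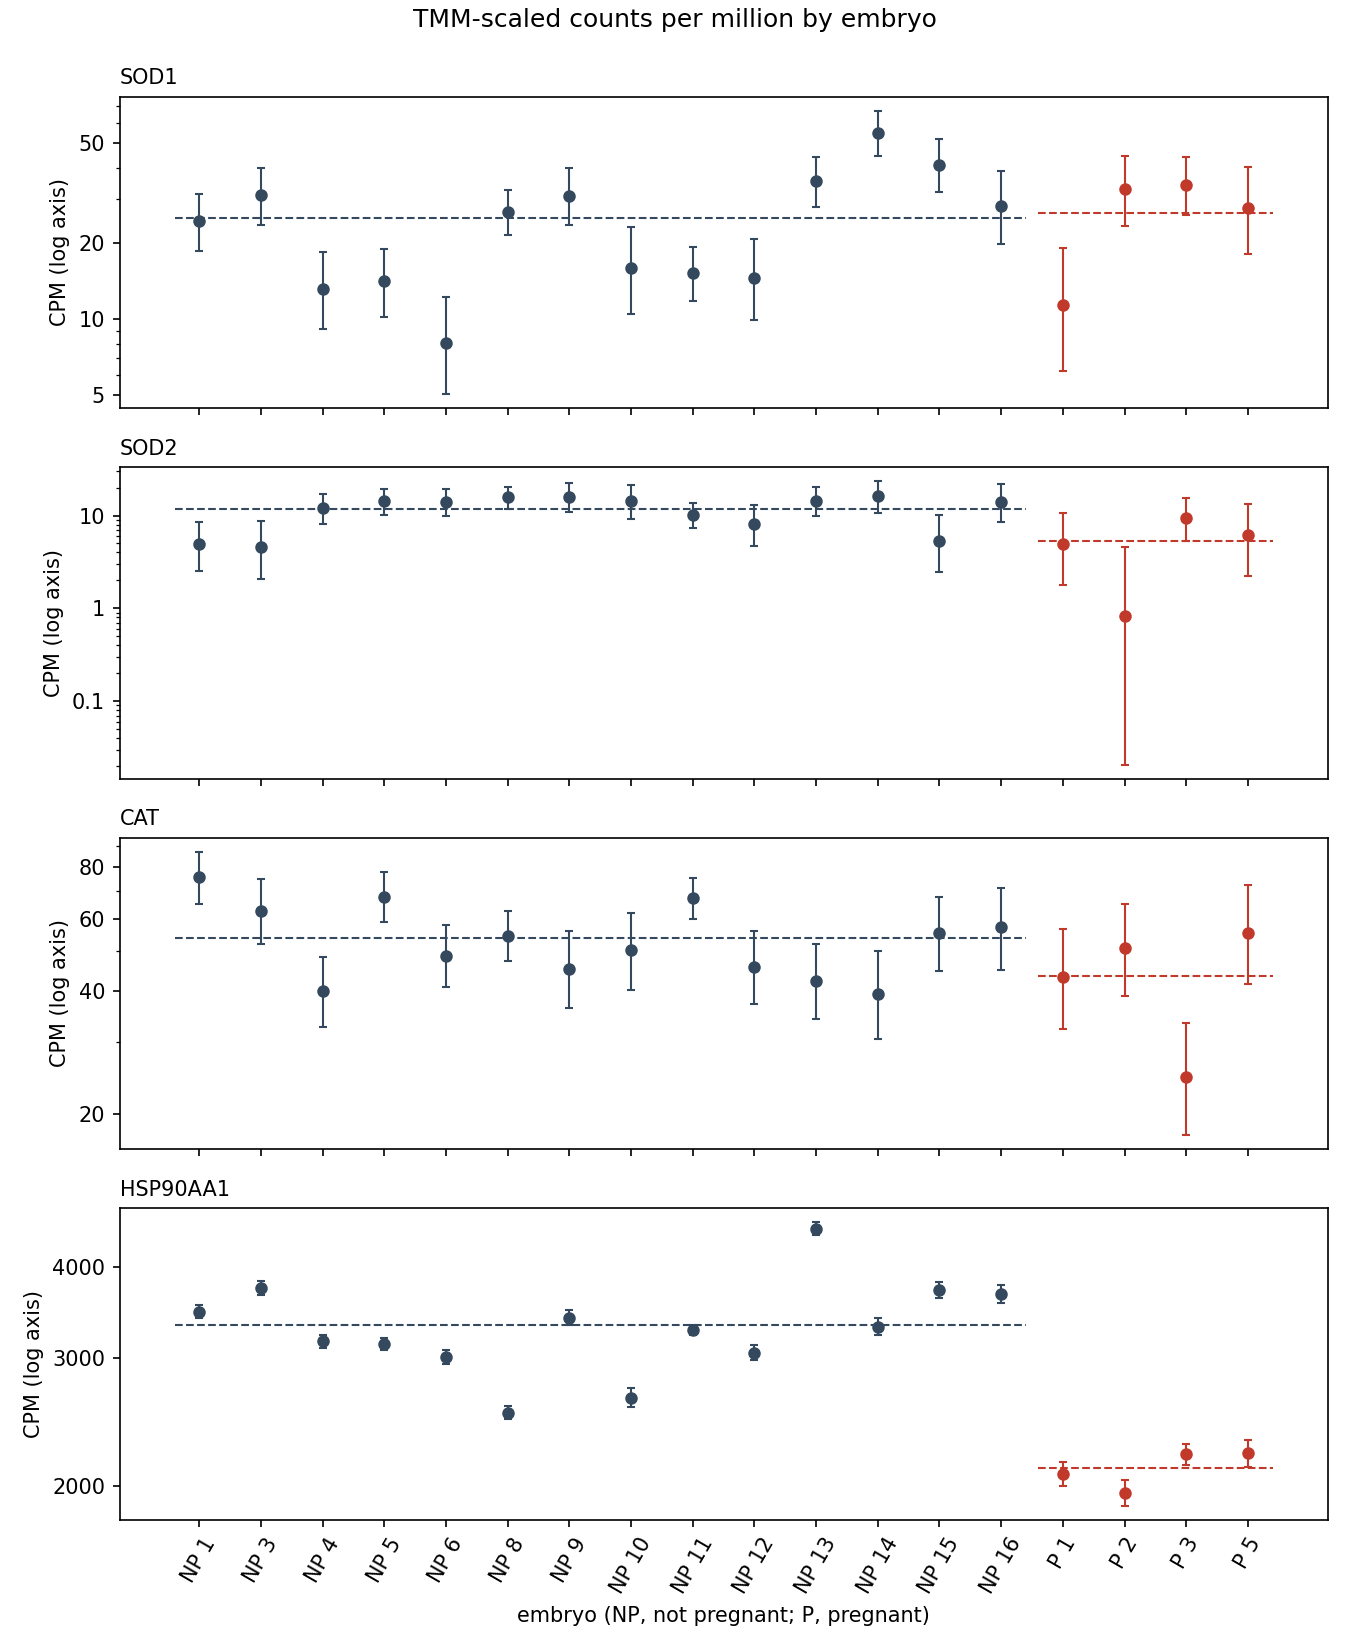
TMM-scaled CPM (log axis) of SOD1, SOD2, CAT and HSP90AA1 in each of the 14 not-pregnant embryos (NP, dark) and 4 pregnant embryos (P, red); bars are exact 95% Poisson intervals, which cover counting error only, and dashed lines are group means. The 4 pregnant embryos lie below all 14 others for HSP90AA1, from 1956 to 2217 against 2521 to 4516 CPM, and overlap them for the 3 enzymes.

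HSP90AA1 rested on 2162 to 3755 counts in the pregnant libraries and 4478 to 14575 in the others, so its counting error was small. Its level was 2077 CPM in pregnant 1, 1956 in pregnant 2, 2209.7 in pregnant 3 and 2217 in pregnant 5. The not-pregnant embryos ran from 2521 to 4516 CPM, with a median of 3293. The groups did not overlap. All 4 pregnant embryos lay below all 14 others in 0.375% of the tested IDs, and above all of them in 1.21%. Group means were 2115 ± 124 CPM (SD, n = 4) and 3331 ± 500.2 CPM (SD, n = 14). The log2 fold change of HSP90AA1 was -0.66 (SE 0.16, 95% confidence interval -0.99 to -0.32), a pregnant level of 0.635 times the not-pregnant one, and it passed narrowly (adjusted p = 0.0466 in edgeR), as the 87th of the 101 called IDs by p-value.

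The HSP90AA1 groups also stayed apart with RLE or upper quartile scaling, with another TMM reference library (not-pregnant 15), with plain library totals and with totals outside the 20 most abundant IDs. The reference of the main TMM scaling was not-pregnant 11, the library with the most counts (4689576) and the fewest IDs detected (13234). With plain totals the gap was narrow, at a highest pregnant value of 2529 CPM in pregnant 5 and a lowest not-pregnant value of 2536 CPM in not-pregnant 8, and pregnant 3 was then lowest at 1539 CPM. Over these 6 scalings the log2 fold change ran from -0.74 to -0.46, and the adjusted p passed in 2 of them. A scaling shifts all genes of a library alike, so the difference measured from the median of all tested IDs is nearly the same in each by construction, at -0.76 to -0.75. After cyclic loess normalization, which is not a common shift, it was -0.23 from that median. Leaving out any of the 4 pregnant libraries ended the call, at -0.65 (adjusted p = 0.166 in edgeR) without pregnant 1, -0.63 (adjusted p = 0.135) without pregnant 2, -0.78 (adjusted p = 0.0504) without pregnant 3 and -0.69 (adjusted p = 0.0993) without pregnant 5. So did leaving out not-pregnant 1, 3, 4, 5, 6, 9 or 15, with log2 fold changes still between -0.66 and -0.64. Without pregnant 1, 2, 3 or 5, the IDs called in all numbered 0, 13, 3 and 14 (0%, 0.0938%, 0.0216% and 0.101% of those tested). With all libraries they numbered 101 (0.773%). The unadjusted p of HSP90AA1 in those 4 edgeR fits was 0.00139, 0.00208, 0.000164 and 0.000731. With log2 total counts as a covariate the difference was -0.72 (SE 0.20, unadjusted p = 0.00106, adjusted p = 0.512 in edgeR). With the number of IDs detected at equal depth as a covariate it was -0.68 (SE 0.24, unadjusted p = 0.00827, adjusted p = 0.9997 in edgeR). At equal depth, IDs detected numbered 16250 to 18539 in the pregnant libraries and 11171 to 16010 in the others. That covariate thus separates the groups, and the fit can hardly tell it from outcome.

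**Figure D2:**
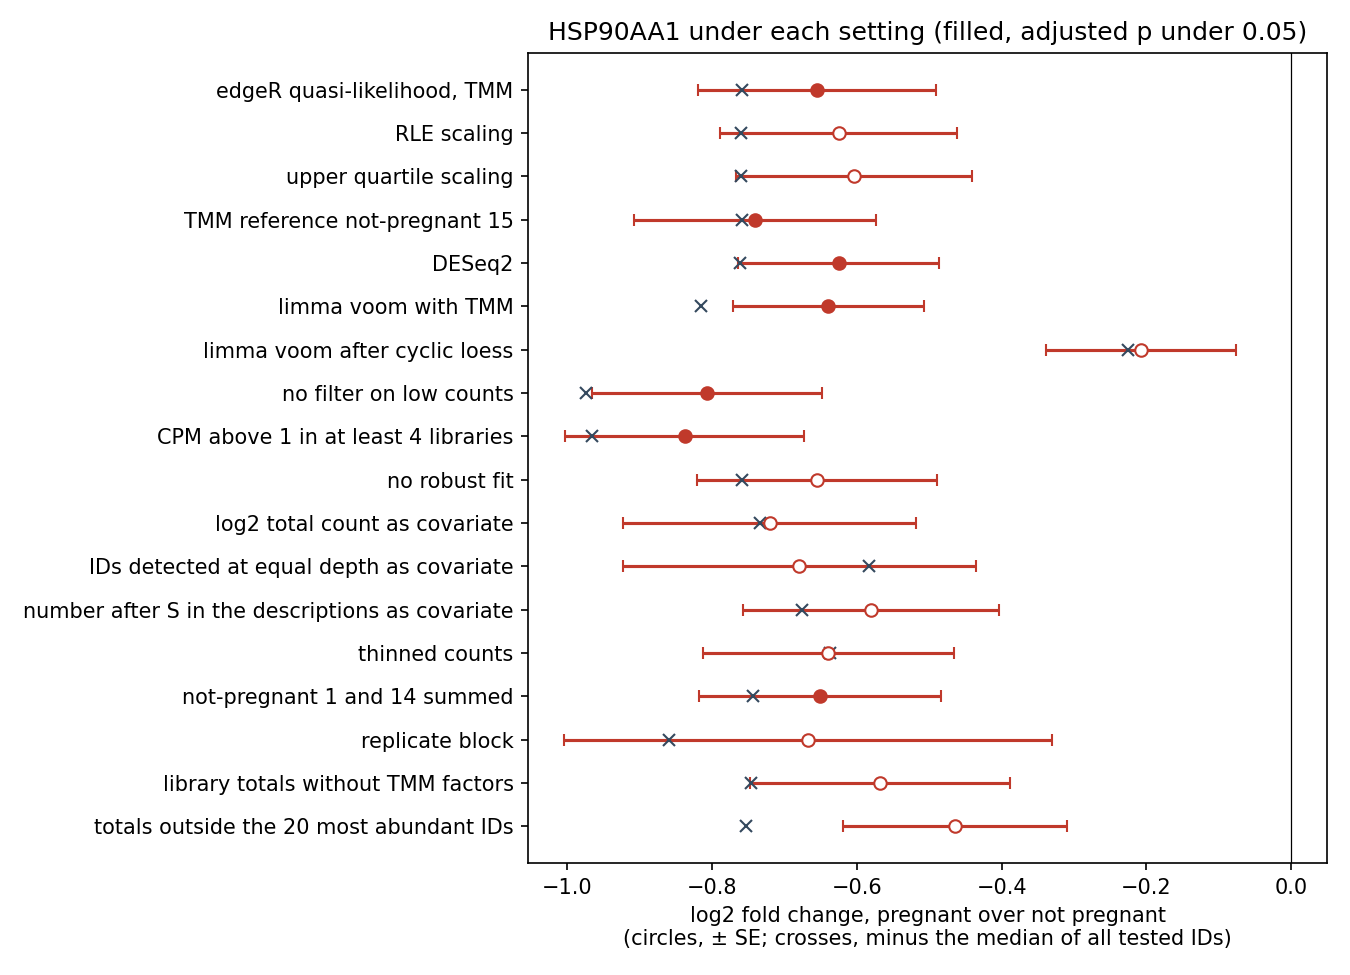
Log2 fold change of HSP90AA1, pregnant over not pregnant, under each way of processing (circles with bars of ± 1 SE; filled where the adjusted p was under 0.05) and the same value minus the median over all IDs tested in that setting (crosses). All circles lie below 0, from -0.84 to -0.21, and the value nearest 0 is the one after cyclic loess normalization.

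HSP90AA1 is an abundant transcript in these embryos. By raw count, not corrected for length, it was among the 22nd to 35th most abundant IDs of every library. Its rank was 23rd to 26th in the pregnant group and 22nd to 35th in the not-pregnant group, with a not-pregnant median of 30.5. Its place among abundant transcripts thus did not drop, but a rank also depends on the levels of the other abundant IDs. Of the 58 IDs with a mean of at least 1000 CPM, 9 were called lower (15.5%) and 0 higher in edgeR, and in 5 (8.62%) the pregnant embryos all lay below the others. The median log2 fold change of these 58 IDs was -0.48, and 22 of them, HSP90AA1 included, were at or below its -0.66. The rest lay above it. Of the 3910 IDs with a mean of at least 32 CPM, 53 were called lower (1.36%) and 3 higher, with a median of -0.19, and in 41 (1.05%) the pregnant embryos all lay below the others. In limma voom after cyclic loess normalization, which by construction removes a trend of fold change with abundance, HSP90AA1 was at -0.21 (SE 0.13, adjusted p = 0.653). The part that library depth and the number of detected IDs have in these values was not tested. The limits of 32 and 1000 CPM were chosen after the values were seen. Reads shared with closely related HSP90 genes or pseudogenes may have been counted here or dropped, since no source used here says how such reads were treated.

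**Figure D3:**
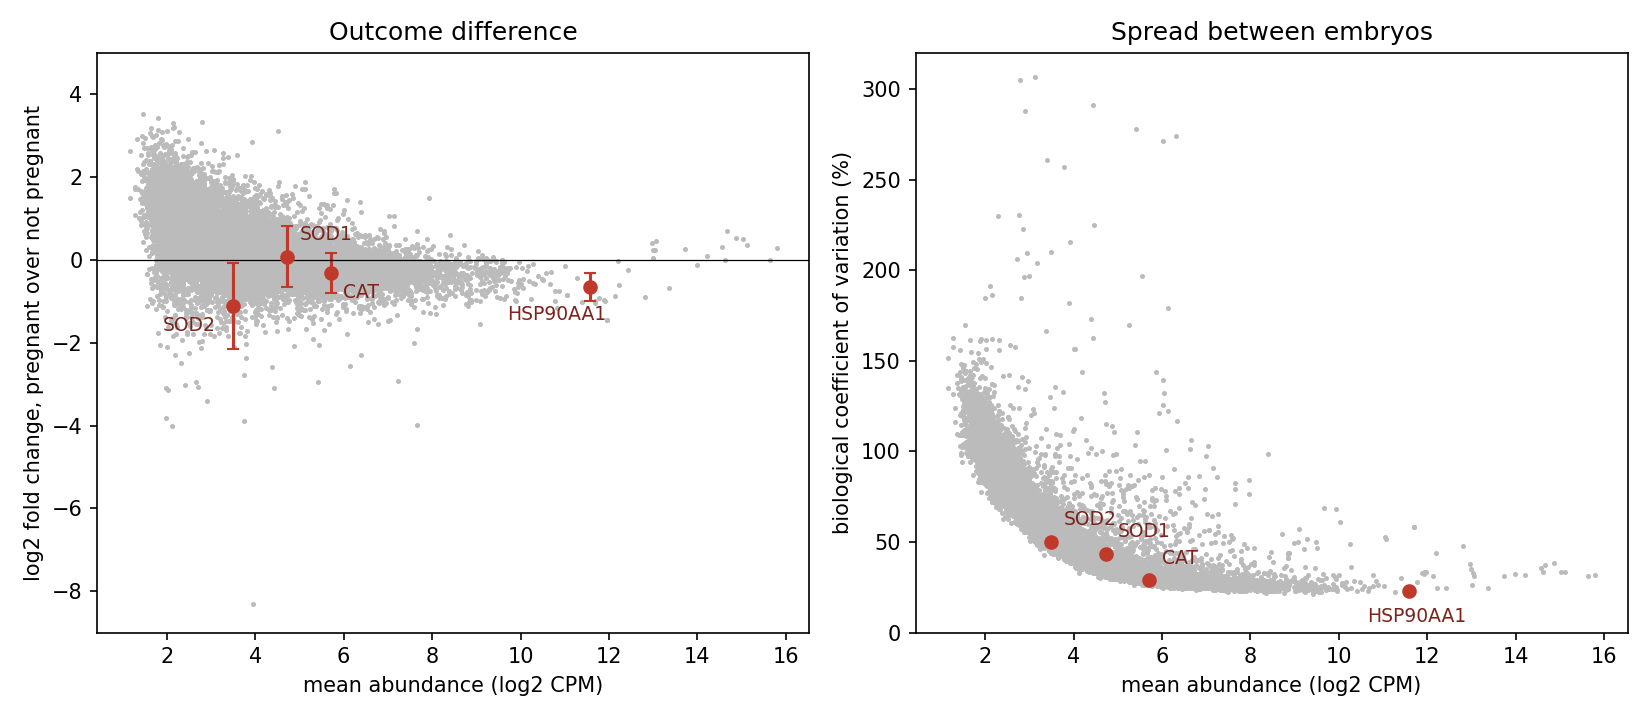
Left, log2 fold change (pregnant over not pregnant) against mean abundance for the 13060 tested IDs (grey) and the 4 genes (red, with 95% confidence intervals). Right, biological coefficient of variation between embryos against mean abundance for the same IDs. HSP90AA1, at -0.66, lies in a region where most fold changes are below 0, and its variation of 22.9% is near the bottom of the range.

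The coefficient of variation among libraries of the same outcome differed between the 4 genes. SOD1 was the most variable among not-pregnant embryos, with a coefficient of variation of 51.2% and a 6.82-fold range, although counting error alone would give 13.99%. SOD2 varied by 36.6%, where counting error alone would give 19.9%. CAT varied by 21.0% (9.19% for counting error alone) and HSP90AA1 by 15.02% (1.19% for counting error alone). Such coefficients do not add up as parts of a whole. In the 4 pregnant embryos the coefficients were 39.4% for SOD1, 66.8% for SOD2, 31.0% for CAT and 5.86% for HSP90AA1, where counting would give 17.4%, 38.2%, 13.98% and 1.96%. HSP90AA1 had the lowest coefficient of the 4 in both groups. Counting error leaves out library preparation and PCR duplicates, so the excess over it cannot be read as variation between embryos alone. Levels of HSP90AA1 in the pregnant embryos were within 1.13-fold of each other.

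As a model estimate, edgeR gave biological coefficients of variation of 43.6% for SOD1, 50.1% for SOD2, 28.8% for CAT and 22.9% for HSP90AA1, against a median of 49.4% over all tested IDs. These values are drawn towards the trend with abundance. Only 0.145% of the tested IDs had a lower value than HSP90AA1. The 24 other IDs within 2-fold of its abundance had a median of 31.3%. SOD1, in contrast, was above the median of 38.8% of the 4646 other IDs near its abundance, while SOD2 and CAT were below theirs (58.0% and 32.6%).

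Whether embryos of 1 outcome varied more than those of the other was compared by the mean absolute deviation of log2 CPM from the group median. It was 0.44 in the pregnant and 0.60 in the not-pregnant group for SOD1, 0.71 and 0.43 for SOD2, 0.34 and 0.24 for CAT, and 0.07 and 0.16 for HSP90AA1. None of these 4 differences passed a two-sided permutation test over all 3060 choices of 4 of 18 embryos. The permutation p was 0.539, 0.450, 0.426 and 0.223 in the same order, each 0.539 after adjustment over the 4. Deviations were fixed beforehand from the observed group medians, so these p-values are approximate. Single libraries moved the differences. That of SOD1, -0.16, was -0.50 without pregnant 1 (permutation p = 0.0588, adjusted p = 0.235), -0.10 without pregnant 2 or pregnant 5 and -0.09 without not-pregnant 6. That of SOD2, 0.28, was -0.15 without pregnant 2 and 0.42 without pregnant 1 or pregnant 5. For CAT it was -0.13 without pregnant 3, from 0.10 with all embryos.

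Ratios between 2 genes of the same library do not depend on how libraries are scaled. They were taken after adding 0.5 to each count and are not corrected for length, so only their difference between the groups is read, not the level of one gene against another. Of the 6 ratios among the 4 genes, none differed between the groups after adjustment over the 6. With 0.5 added to each count, the SOD1 to SOD2 ratio was 2.23 to 27.0 in the pregnant embryos, with a median of 3.87, and 0.584 to 7.32 in the not-pregnant embryos, with a median of 1.86. All 4 pregnant ratios lay above the not-pregnant median, and that of pregnant 2, which rests on 1 SOD2 count, lay above the whole range. On the log2 scale the SOD1 to SOD2 ratio was 2.45 ± 1.58 (SD, n = 4) against 1.04 ± 1.05 (SD, n = 14), a difference of 1.42 (exact two-sided permutation p = 0.0493, adjusted p = 0.190). Without pregnant 2 it was 0.65 (exact permutation p = 0.316, adjusted p = 0.768).

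The SOD1 to HSP90AA1 ratio differed by 0.78 on the log2 scale (exact permutation p = 0.0634, adjusted p = 0.190), with 3 of 4 pregnant embryos above the not-pregnant median. Taken the other way round, with 0.5 added to each count, the ratio of HSP90AA1 to SOD1 was 59.0 to 176 in the pregnant group, with a median of 71.1, and 59.9 to 365 in the others, around a median of 134. For CAT to HSP90AA1 the difference was 0.31 (exact permutation p = 0.202, adjusted p = 0.250). There 2 pregnant embryos lay above all 14 others. The 3 remaining differences were 0.47 for SOD1 to CAT (exact permutation p = 0.352), -0.95 for SOD2 to CAT (exact permutation p = 0.127) and -0.64 for SOD2 to HSP90AA1 (exact permutation p = 0.208), with adjusted values of 0.352, 0.250 and 0.250. The ratios between HSP90AA1 and each of the 3 enzymes thus did not pass. They also carry the variation of the enzymes, so they do not test HSP90AA1 alone. Single libraries moved several of these values. Without pregnant 2 the difference was -0.23 for SOD2 to CAT, -0.05 for SOD2 to HSP90AA1 and 0.18 for CAT to HSP90AA1. Without pregnant 3 it was 0.06 for SOD1 to CAT, -1.56 for SOD2 to CAT, -0.98 for SOD2 to HSP90AA1 and 0.58 for CAT to HSP90AA1. It was 0.85 for SOD1 to CAT without pregnant 1 and 0.20 for CAT to HSP90AA1 without pregnant 5. None of these passed an exact permutation test after adjustment over the 6 (lowest adjusted p = 0.0662).

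**Figure D4:**
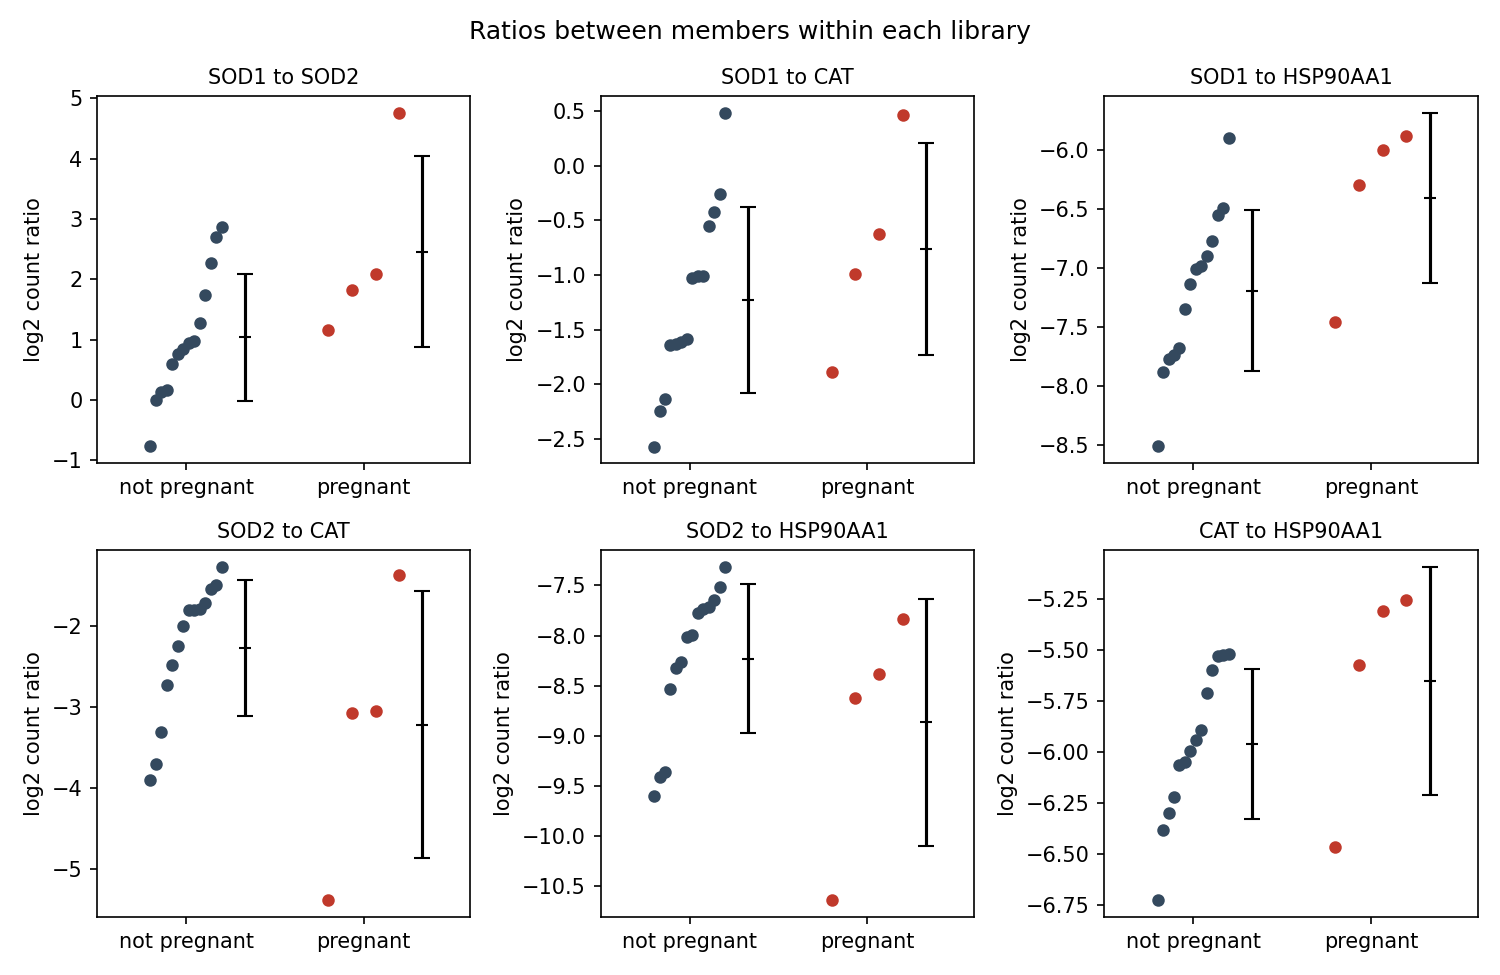
Log2 ratio of counts between each pair of the 4 genes (0.5 added to each count) in the not-pregnant embryos (dark, n = 14) and the pregnant embryos (red, n = 4), each group sorted by value; bars are the group mean ± SD. Groups overlap in all 6 panels, and the highest SOD1 to SOD2 value, 4.75, is that of pregnant 2.

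How the 4 genes varied together within outcome was followed by removing the group means from log2 CPM and correlating the 18 embryos, over 6 pairs. SOD2 and CAT, whose enzymes act on superoxide and on hydrogen peroxide, had a negative Pearson's r of -0.54 (permutation p = 0.0198, adjusted 0.119) and a Spearman's rho of -0.51 (permutation p = 0.0332, adjusted 0.0997). Neither passed after adjustment. Without the 2 embryos farthest from the median of SOD2, r was -0.50 (permutation p = 0.0489, adjusted 0.218), and within the 14 not-pregnant embryos it was -0.52 (permutation p = 0.0597, adjusted 0.212). Over the 18 libraries left out in turn, r ran from -0.65 to -0.41, and it passed after adjustment without pregnant 5 (adjusted permutation p = 0.0279).

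SOD1 and HSP90AA1 had a positive r of 0.45 (permutation p = 0.0598, adjusted 0.179) and a rho of 0.60 (permutation p = 0.00943, adjusted 0.0566), neither past the threshold after adjustment. Their r was 0.46 without the 2 embryos farthest from the median of SOD1 and 0.50 within the not-pregnant group. SOD1 and SOD2, the cytosolic and the mitochondrial dismutase, were at r = -0.11 and rho = 0.24 (permutation p = 0.658 and 0.331, adjusted 0.789 and 0.534). For SOD1 with CAT the values were r = -0.14 and rho = -0.23, for SOD2 with HSP90AA1 r = -0.11 and rho = -0.06, and for CAT with HSP90AA1 r = -0.05 and rho = 0.12, with adjusted permutation p from 0.534 to 0.836. All of these share the library's depth and scaling, and SOD2 its low counts.

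**Figure D5:**
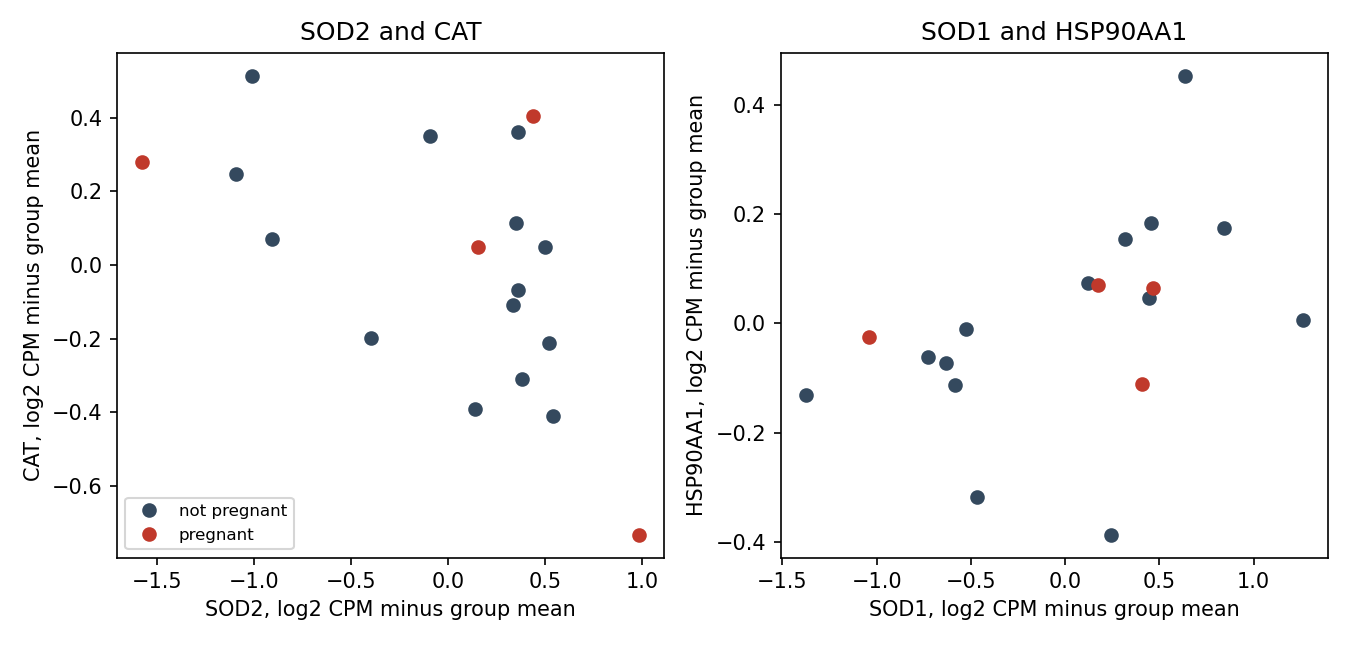
Log2 CPM minus the group mean for SOD2 against CAT (left) and SOD1 against HSP90AA1 (right), 1 point per embryo, not pregnant dark and pregnant red. The left panel has r = -0.54, with pregnant 3 at the lower right, and the right panel r = 0.45; neither passed after adjustment over the 6 pairs.

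For each gene the tested ID with the most similar profile over the 18 embryos was taken by Pearson's r of log2 CPM, as a description. For SOD1 this was ENSBTAG00000030169, with r = 0.89 and rho = 0.83, at a mean of 158 CPM and a log2 fold change of -0.15 (SE 0.20). Within the 14 not-pregnant embryos that r was 0.91. For HSP90AA1 it was ENSBTAG00000006744 (r = 0.88, rho = 0.77), at 86.5 CPM and a log2 difference of -0.63 between the groups (SE 0.19, edgeR adjusted p = 0.0921), with r = 0.70 within the not-pregnant group. SOD2 was closest to ENSBTAG00000019211 (r = 0.83, rho = 0.73) and CAT to ENSBTAG00000021127 (r = 0.79, rho = 0.69), and within the not-pregnant group these values of r were 0.72 and 0.64. Each is the highest of 13059 values, so that its size is partly given by the choice. None of the 4 similar IDs passed the threshold between the groups in edgeR, with adjusted p from 0.0921 to 0.733.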

How the data were processed

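The authors deposited raw read counts for each Ensembl ID in 18 columns, 1 for each demi-embryo, with 0 columns of no sample. Libraries came from total RNA by NuGEN's SoLo method with bovine transcript depletion and were read from a single end over 75 bp, per the labels' protocols. In the submitters' processing notes edgeR and the genome builds bosTau8 and UMD3.1 appear. Aligner, counter, strand setting and the treatment of duplicate or multiply placed reads: not given in the sources used here. For that reason counting intervals may be too narrow.

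Names of the 4 genes are those given with their IDs when they were chosen. The count table has no names, and 0 of its IDs matched the RefSeq gene table (ARS-UCD2.0), so lists of further antioxidant, chaperone and cell marker genes were not used and no coordinates or sequences are given. The members, lists and tests were chosen with earlier results of these data known. Besides the 4 genes, the rule for named genes takes the 1 ID most similar to each.

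Outcome was tested with edgeR 4.0.16 (R 4.3.3), after filterByExpr with the groups (a CPM worth 10 counts in a library of median size, in at least 4 libraries, and a sum of 15), with TMM, robust glmQLFit, glmQLFTest and Benjamini-Hochberg adjustment over all tested IDs. Log2 CPM used a prior count of 2. Standard errors and 95% intervals follow from the F statistic. Ratios (0.5 added to each count) were tested by exact permutation in Python 3.11.15, correlations with 100000 permutations. Spread was tested over all splits of deviations fixed beforehand, which is approximate. The fit and the permutation test of a difference in means were tested on simulated data. Alternatives were RLE, upper quartile, another TMM reference, DESeq2 1.42.0, limma 3.58.1 with voom, other filters, covariates, thinned counts, libraries left out, and, chosen after seeing the data, 2 scalings by totals and RLE or left-out libraries for correlations.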

Additional observations from a re-analysis of the deposited data

How the results depend on the processing

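The log2 fold change of HSP90AA1 (-0.66) kept its sign in every setting run. The call ended with RLE (-0.63), upper quartile scaling (-0.60), no robust fit (-0.66), cyclic loess (-0.21), log2 total counts (-0.72), IDs detected (-0.68) or the number after S in the descriptions (-0.58) as covariate, thinned counts (-0.64), plain library totals (-0.57) and totals outside the 20 most abundant IDs (-0.46). The cause was not tested, and IDs detected at equal depth did not overlap between the groups. HSP90AA1 passed in 6 of the 17 other settings, each of which also called more IDs in all than the main fit. Its adjusted p was 0.00262 in DESeq2 and 0.00718 in limma voom with TMM. In edgeR it was 0.0016 without a filter, 0.00286 with a CPM filter, 0.0236 with another TMM reference and 0.0466 with not-pregnant 1 and 14 summed. Over single libraries left out its log2 fold change ran from -0.78 to -0.61, and it passed in 7 of 18. SOD1 changed sign with another TMM reference (-0.00028), no filter (-0.065), a CPM filter (-0.089), log2 total counts (-0.10) and IDs detected (-0.20), and ran from -0.17 to 0.32 over left-out libraries. SOD1, SOD2 and CAT passed in 0 of their settings. SOD2 ran from -1.67 to -0.77 and CAT from -0.46 to -0.22 over left-out libraries. The difference in spread of SOD2 (0.28) was -0.017 with thinned counts and -0.15 to 0.42 over left-out libraries, and that of CAT -0.13 to 0.14. No ratio passed in any setting run.

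The number of IDs called (101) was 252 with another TMM reference, 326 in DESeq2, 1086 in limma voom, 11 after cyclic loess, 623 without a filter, 406 with a CPM filter, 34 with thinned counts, 43 with plain totals, 1 with log2 total counts, 0 with IDs detected (146 higher and 344 lower at an unadjusted p under 0.05 in edgeR), 1 with the number after S, and 0 to 359 over left-out libraries (0 without pregnant 1, 359 without not-pregnant 16). Higher IDs were 44.6% of the calls, and 25.0% with the other TMM reference, 81.4% with plain totals and 82.3% with totals outside the 20 most abundant IDs.

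The title numbers shared by the groups showed no sign of pairing embryos: for the 3 shared numbers the correlations of deviations were -0.04, 0.07 and -0.03, and 0 were highest with their own number. Whether embryos of the same number share a donor cannot be told from 3 numbers. The replicate block gave 591 called IDs and log2 fold changes of -0.67 (adjusted p = 0.258) for HSP90AA1, 0.03 for SOD1, -0.06 for SOD2 and -0.81 for CAT, from 3 pairs only. Depth limits SOD2 most.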
